A study of Homo sapiens with 18 samples.

Results

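The 10 long noncoding RNAs described here are MALAT1, NEAT1, MIAT, CHASERR, MEG3, GAS5, SNHG1, LINC00942, LINC02983 and FZD10-AS1. They were taken from a list of names and matched by symbol to 1 Ensembl identifier each, out of 58735 genes in the deposited table of read counts. The list was chosen by hand with the counts of these same libraries already known, including their levels across treatments and library codes, so the values below describe these genes and nothing is tested from their choice. The cells were wild-type SH-SY5Y, an established human neuroblastoma line, kept for 7 days in 10 µM all-trans retinoic acid, which turns them neuron-like. Every group was then treated for 15 min: Morphine at 193 nM, Metamorphine at 169 nM, TRV130 at 200 nM, Beta-Endorphin at 200 nM, Naloxone at 200 nM, or Control, which was water. Each of these 6 groups had 3 libraries. Morphine, TRV130 and the peptide beta-endorphin activate the mu opioid receptor, and naloxone blocks it. The ligands were not all at 1 concentration, so their values are set side by side and not compared with each other by structure. RNA was total RNA of whole cells of a single tumour line, so no measurement here says in which compartment of the cell a transcript lay.

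Long noncoding RNAs are transcripts that are not read into protein, and several of these act where they are made. MALAT1 gathers in nuclear speckles, the stores of splicing factors, and NEAT1 is the scaffold of paraspeckles, which need its long isoform. MALAT1 and the long isoform of NEAT1 end in a triple helix instead of a poly(A) tail, and a small tRNA-like RNA is cut from the end of each precursor. MIAT is a neuronal transcript whose repeated UACUAAC motif binds the splicing factor SF1. CHASERR lies beside CHD2, a chromatin remodeller gene, and in mouse it lowers that gene's output. MEG3 is the maternally expressed transcript of an imprinted cluster. GAS5 and SNHG1 carry small nucleolar RNAs in their introns, and their spliced transcripts are removed by nonsense-mediated decay when ribosomes translate them.

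The tRNA-like RNAs are printed here because their reads, and those of other small genes inside MALAT1 and NEAT1, are used below to see which stretch of each transcript was covered. Both are GENCODE 29 transcripts on the plus strand of GRCh38, at chr11:65506117-65506173 inside MALAT1 and at chr11:65445541-65445598, directly past the annotated end of NEAT1. Capitals mark the 40 bases that are identical in an alignment of the pair, whose lengths are 57 and 58 bases.
RF01684 in MALAT1: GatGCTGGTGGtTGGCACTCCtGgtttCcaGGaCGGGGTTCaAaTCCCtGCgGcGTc
RF01684 after NEAT1: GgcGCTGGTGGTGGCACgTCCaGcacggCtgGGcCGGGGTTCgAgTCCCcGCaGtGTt

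The MIAT stretch below shows the repeat for which that RNA is known. It is 64 bases of the longest annotated transcript at chr22:26672172-26672235 on the plus strand of GRCh38, and it lies inside the small annotated gene RF01876. Capitals mark TACTAAC, the DNA spelling of the motif, searched on the transcript strand only.
MIAT repeat stretch: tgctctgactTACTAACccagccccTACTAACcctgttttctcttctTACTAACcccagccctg
The whole 10143-base transcript holds 7 copies, the first starting at base 5087 and the last at base 5887. Of 1733 annotated transcripts whose length is within 20% of it, 0.231% hold as many copies and 20.5% hold at least 1.

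The first 30 bases of the longest annotated transcripts of the snoRNA hosts, GAS5 at chr1:173867960-173867989 and SNHG1 at chr11:62855856-62855885, both on the minus strand of GRCh38, are given because ribosomal protein mRNAs, described beside them below, begin with an unbroken run of pyrimidines. Capitals mark such a run at the first base.
GAS5 start: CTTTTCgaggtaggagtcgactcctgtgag
SNHG1 start: CTCatttttctactgctcgtggtaagtggc
The run is 6 bases long in GAS5, a length that 2.96% of 206694 annotated transcripts reach. It is 3 bases long in SNHG1, a length that 11.5% reach.

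Total counts ran from 21211449 to 33123855 per library. The name of each library ends in a code, called A (7 libraries), B (6) and C (5) here, and code C holds no TRV130 library. The labels do not say what the code stands for. Nor do they say whether libraries of 1 group were grown as separate cultures, so p-values measure only the spread between libraries, which may be technical. The 8 markers of noradrenergic neuroblastoma cells, DBH among them, summed to 5064 to 6179 CPM, a gene's reads scaled to a library total of 1e+06, and none was at 0. The 5 glial markers summed to 6.47 to 9.39 CPM, the 5 immune markers to 4.84 to 10.96 CPM with the highest in Control, and the 5 fibroblast markers to 90.5 to 188 CPM. Control 1 stood apart, with 20888 reads in the 3647 coding genes whose median count was 0, against 276 to 3074 reads in the other 17 libraries. Control 2 stood apart in that the 10 RNAs took 4.49% of all long noncoding RNA counts, against 1.29% to 1.97% in the others. As in any bulk sample, fewer cells that make a transcript and less of it per cell cannot be told apart.

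Per length of exon, in TPM, which scales reads by exon length and then to the same library total, over all 18 libraries, GAS5 had the highest median, 103, with a range of 65.9 to 182. MALAT1 followed with a median of 40.6 and a range of 19.7 to 302, which overlapped those of GAS5 and of the next RNAs. In Control 2 the order was turned, with MALAT1 at 302 TPM and GAS5 at 65.9 TPM. NEAT1, SNHG1, CHASERR and MIAT had medians of 23.3, 22.1, 19.5 and 17.3 TPM, and their ranges overlapped, so these neighbours in the order were not separated beyond their spread. The NEAT1 value divides by 22767 bases, the length of the long isoform. The small genes RF01955, RF01956 and RF01957 near its start, of 120, 105 and 159 bases, drew medians of 11.4%, 10.3% and 11.9% of its count. Its reads were thus uneven along that length, and its place in the order depends on the length used. The lengths of GAS5 and SNHG1 are unions of all annotated exons. They take 3631 bases of a 4983-base span and 3756 bases of a 3927-base span, so the places of these 2 RNAs depend on the length used too. LINC02983 lay lower, with a median of 3.30 TPM and a range of 1.39 to 4.67. LINC00942 had a median of 0.256 TPM and FZD10-AS1 one of 0.0348 TPM. MEG3, which has a median of 0, was the scarcest. On this scale 6 of the 10 RNAs were well expressed and 4 were scarce.

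Of the 10 RNAs, 9 were abundant enough to be among the 23231 genes fitted, and MEG3 was not. LINC00942 and FZD10-AS1 had 10 or more reads in only 5 libraries each, Control 1 and Control 2 among them, and so were kept partly because of the group in which they were highest. In the edgeR quasi-likelihood fit with Benjamini-Hochberg adjustment over all fitted genes, none of the 9 passed an adjusted p of 0.05 in any of the 5 comparisons with Control. The background was 0% in each, since 0 of 23231 genes passed. The library code was not in this fit, and with the code as a block 0 genes passed in these comparisons too. At an unadjusted p under 0.05, there were 944 genes for Morphine, 1820 for Metamorphine, 430 for TRV130, 2198 for Beta-Endorphin and 1545 for Naloxone. These numbers moved with the Control libraries used, to 342 to 460 without Control 1, 1859 to 4932 without Control 2 and 926 to 4596 without Control 3, and to 1037 to 6451 with the library code as a block. The comparisons share the 3 Control libraries, so they are not independent of each other. DESeq2 called 0, 0, 1, 1 and 2 genes in the same order.

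MALAT1 was set by a single library. Its level was 194, 205 and 113 CPM with Morphine, 243, 208 and 77.5 CPM with Metamorphine, 285, 185 and 235 CPM with TRV130, 123, 258 and 121 CPM with Beta-Endorphin, 151, 268 and 75.3 CPM with Naloxone, and 122, 1514 and 92.1 CPM in Control. Control 2 held 34004 MALAT1 reads and stood 5.31 times above the next library, while the other 2 Control libraries lay within the range of the ligand libraries. The fitted log2 fold changes against Control were -1.78 ± 0.78 (SE) for Morphine, -1.79 ± 0.78 for Metamorphine, -1.20 ± 0.77 for TRV130, -1.86 ± 0.78 for Beta-Endorphin and -1.89 ± 0.78 for Naloxone (n = 3 each). Without Control 2, the direction turned in all 5, to 0.51, 0.50, 1.09, 0.43 and 0.41 in the same order. Libraries were also set against the Control library of their own code, on log2 CPM with library totals scaled by TMM, whereas the CPM printed here are not so scaled. MALAT1 in all 5 code B ligand libraries lay 2.60 to 2.96 lower on that log2 scale. In code A it was higher than Control 1 in 5 of 6 ligand libraries (6 of 6 without TMM scaling), and in code C it was higher than Control 3 in 2 of 4.

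NEAT1 was also highest in Control 2, by less. Its level was 246, 367 and 235 CPM with Morphine, 267, 328 and 156 CPM with Metamorphine, 268, 190 and 394 CPM with TRV130, 260, 379 and 211 CPM with Beta-Endorphin, 265, 432 and 211 CPM with Naloxone, and 160, 625 and 204 CPM in Control. Every ligand group lay inside the span of the Control libraries apart from Metamorphine 3, at 156 CPM, and the groups overlapped throughout. The fitted log2 fold changes of NEAT1 were small beside their errors, from -0.51 ± 0.41 (SE) for Metamorphine to -0.19 ± 0.41 for TRV130 (n = 3 each). Without Control 2 they lay between 0.27 and 0.58, so for this gene too the direction rested on that library. NEAT1 was higher than the Control library of its code in 6 of 6 code A, 0 of 5 code B and 1 of 4 code C ligand libraries on the scaled log2 CPM. Without TMM scaling the code C count was 3 of 4, so the direction there rests on the scaling.

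**Figure D1:**
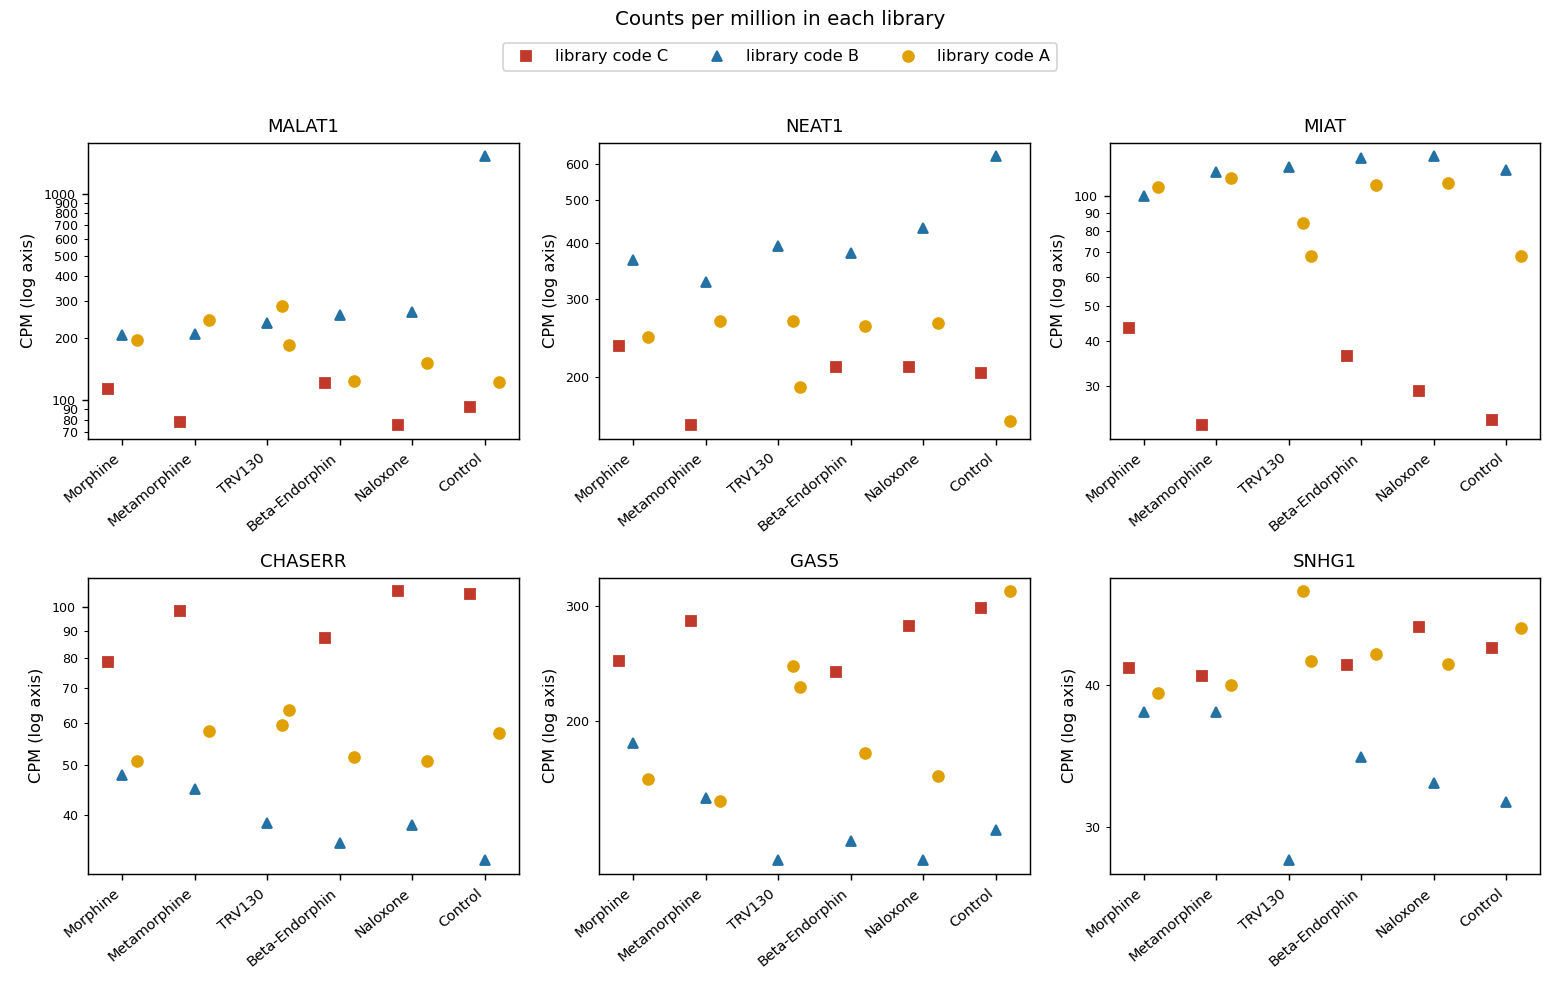
CPM (log axis) of the 6 well expressed RNAs in each of the 18 libraries, by treatment group, with the colour and shape of a point giving its library code. MALAT1 and NEAT1 are highest in the code B Control library, at 1514 and 625 CPM, while MIAT is lowest and CHASERR highest in code C in every group that has a code C library.

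Small genes that lie inside NEAT1, MALAT1 and MIAT show that libraries, and not those of Control alone, differed along the transcripts as well as in amount. They lie wholly within host exons, so any read counted for them also overlaps the host, and the way shared reads were counted is not given in the sources used here. RF01955, RF01956 and RF01957 lie 499, 864 and 1186 bases from the start of NEAT1, in the part that both isoforms hold. In Control 1 they drew 2.31%, 3.12% and 4.89% of the NEAT1 count, below the other 17 libraries, where the lowest shares were 7.16%, 7.46% and 9.51%. MIR612 lies 21684 bases from the start, in a part that the long isoform alone holds. It had 143 reads, or 1.02% of the NEAT1 count, in Control 2 and 33 reads, or 0.811%, in Control 1. In the other 16 libraries it had 0 to 36 reads, at most 0.458% of the NEAT1 count.

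Both small genes measured inside MALAT1, the tRNA-like RF01684 and RF01871, made up their lowest share of its count in Control 2. RF01684 had 83 reads there, 0.244% of the MALAT1 count, against 0.661% to 3.53% in the other 17 libraries. The share differed by code, at 0.661% to 1.01% in the ligand libraries of code B, 0.872% to 1.71% in those of code A and 1.68% to 2.68% in those of code C. Control 1 had the highest share, 3.53%, and so lay above its code as Control 2 lay below. In CPM RF01684 was not low in Control 2, at 3.70, with a range of 1.32 to 4.87 CPM over all libraries. RF01871, which lies 5226 bases from the MALAT1 start, made up 5.64% of the MALAT1 count in Control 2 and 7.05% to 8.97% elsewhere. The counterpart past the end of NEAT1 had 0 to 3 reads in any library.

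**Figure D2:**
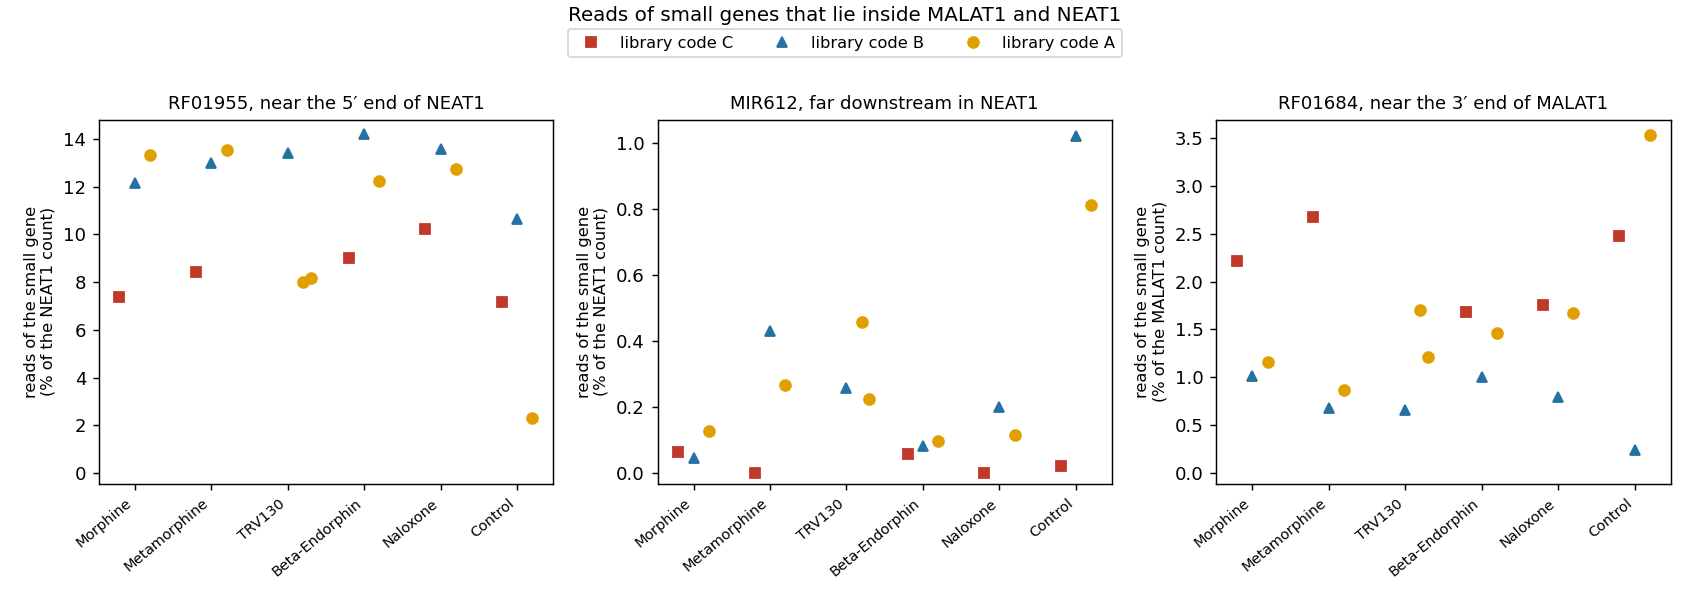
Reads of 3 small genes as a percentage of the count of the RNA they lie in, for each of the 18 libraries by treatment group, with the colour and shape giving the library code. Control 1 is lowest for RF01955 (2.31%), and Control 2 and Control 1 are highest for MIR612 (1.02% and 0.811%). For RF01684 Control 2 is lowest (0.244%) and Control 1 highest (3.53%).

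LINC02983 (ENSG00000234432) is an intergenic transcript on the minus strand of chromosome 7 at 5426277 to 5428927 of GRCh38, with no role given here. It was lower in every ligand library than in the Control library of the same code. It had 4.15, 4.29 and 4.37 CPM with Morphine, 4.28, 4.27 and 4.86 CPM with Metamorphine, 2.35, 2.32 and 3.50 CPM with TRV130, 3.85, 3.66 and 5.27 CPM with Beta-Endorphin, 3.48, 3.43 and 3.97 CPM with Naloxone, and 4.52, 7.04 and 5.35 CPM in Control. Morphine, TRV130 and Naloxone did not overlap with Control, while Metamorphine and Beta-Endorphin each had a library above the lowest Control library. The lowest average was that of TRV130, at 2.73 ± 0.67 CPM, against 5.63 ± 1.28 CPM in Control (SD, n = 3 each). Its code A libraries had 2.35 and 2.32 CPM. Its code B library, at 3.50 CPM, lay above the code B Naloxone library, at 3.43 CPM. TRV130 has no code C library, and LINC02983 averaged 4.76 CPM in code C, 4.37 in code B and 3.56 in code A. Ligand and code are thus mixed in the TRV130 average.

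The fitted log2 fold changes of LINC02983 were -0.48 ± 0.22 (SE) for Morphine, -0.46 ± 0.22 for Metamorphine, -1.04 ± 0.22 for TRV130, -0.52 ± 0.22 for Beta-Endorphin and -0.75 ± 0.22 for Naloxone (n = 3 each). With each library left out in turn, the TRV130 value stayed between -1.15 and -0.91. The edgeR adjusted p for TRV130 was 1.00, while DESeq2 gave -1.07 ± 0.22 with an adjusted p of 0.0316, the single call among 23231 genes (0.0043%) in that comparison. LINC02983 was lower than the Control of its code in 15 of 15 ligand libraries, which 2.79% of all fitted genes were, and each code has only 1 Control library. None of the 9 fitted RNAs was higher in 15 of 15, which 3.69% of fitted genes were. It shares 125 and 197 exon bases with the antisense genes AC092171.4 and LINC03073, which had 13 to 68 and 24 to 66 reads. Because the libraries carry no strand, reads in those bases cannot be assigned to a gene.

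LINC00942 (ENSG00000249628), an intergenic transcript of chromosome 12 that neighbours ERC1, was at the edge of detection. It had 11, 9 and 9 reads with Morphine, 10, 9 and 10 with Metamorphine, 2, 1 and 3 with TRV130, 4, 6 and 5 with Beta-Endorphin, 7, 5 and 7 with Naloxone, and 22, 13 and 5 in Control. Only TRV130 lay wholly below Control, with 0.0302 to 0.108 CPM against 0.207 to 0.864 CPM. The fitted log2 fold changes of LINC00942 were -2.98 ± 0.62 (SE) for TRV130, -1.58 ± 0.56 for Beta-Endorphin, -1.41 ± 0.55 for Naloxone, -0.76 ± 0.53 for Morphine and -0.62 ± 0.53 for Metamorphine (n = 3 each). Control 1, which had the most reads, moved them: without it they were -2.42, -1.02, -0.83, -0.20 and -0.04. LINC00942 was lower than the Control of its code in 12 of 15 ligand libraries, and 25.6% of all fitted genes were so in at least 12. The other 3 were all in code C, where 3 of 4 were above Control 3.

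FZD10-AS1 (ENSG00000250208), transcribed from the minus strand of chromosome 12 beside the WNT receptor gene FZD10, had its fewest reads with 4 of the 5 ligands. It had 5, 6 and 6 reads with Morphine, 5, 2 and 3 with Metamorphine, 0, 3 and 2 with TRV130, 6, 4 and 3 with Beta-Endorphin, 10, 12 and 11 with Naloxone, and 26, 11 and 8 in Control. Set apart after their values were seen, the 12 libraries of the first 4 groups had at most 0.224 CPM and did not overlap with Control, whose lowest library had 0.332 CPM. Naloxone had 0.341 to 0.473 CPM and overlapped with Control.

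The fitted log2 fold changes of FZD10-AS1 were -3.42 ± 0.71 (SE) for TRV130, -2.33 ± 0.65 for Metamorphine, -1.98 ± 0.64 for Beta-Endorphin, -1.69 ± 0.62 for Morphine and -0.79 ± 0.59 for Naloxone (n = 3 each). Without Control 1 they were -2.75, -1.66, -1.33, -1.03 and -0.11. The range allowed by a count of 0 matters here: 3 reads, the limit in the TRV130 library with none, stand for 0.102 CPM. FZD10-AS1 was lower than the Control of its code in 14 of 15 ligand libraries, the exception being in code C, and 9.1% of all fitted genes were so in at least 14. For the mean of the 5 ligands against Control, where edgeR called 0 of 23231 genes (0%), leaving out Control 3 brought 123 calls (0.529%). LINC00942 and FZD10-AS1 were among these, with edgeR adjusted p of 0.0456 and 0.0448. That setting drops the Control library with the fewest reads of both, 5 and 8. Control then rests on Control 1 and Control 2, through which both genes were partly kept, so these p-values add no support. With no filter on low counts FZD10-AS1 passed too, with an edgeR adjusted p of 0.0260 and a background of 7.02%.

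MEG3 was not measurable outside Control 1. That library held 35 MEG3 reads, the others 16 in all, with at most 4 in any of them and 0 in 10 libraries. A count of 0 allows up to 3 reads, which is 0.0906 to 0.141 CPM depending on the library. MEG3 was therefore not among the fitted genes. With no filter on low counts it passed the edgeR threshold for the mean of the 5 ligands, but Control 1 holds all the MEG3 reads of Control, so that call rests on a single library. The same library was the highest for LINC00942 and FZD10-AS1, and the 6 epithelial markers summed to 4.52 to 13.2 CPM in Control against 2.51 to 4.77 CPM in the ligand groups. The part of such reads in these 3 results was not tested beyond the values without Control 1.

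**Figure D3:**
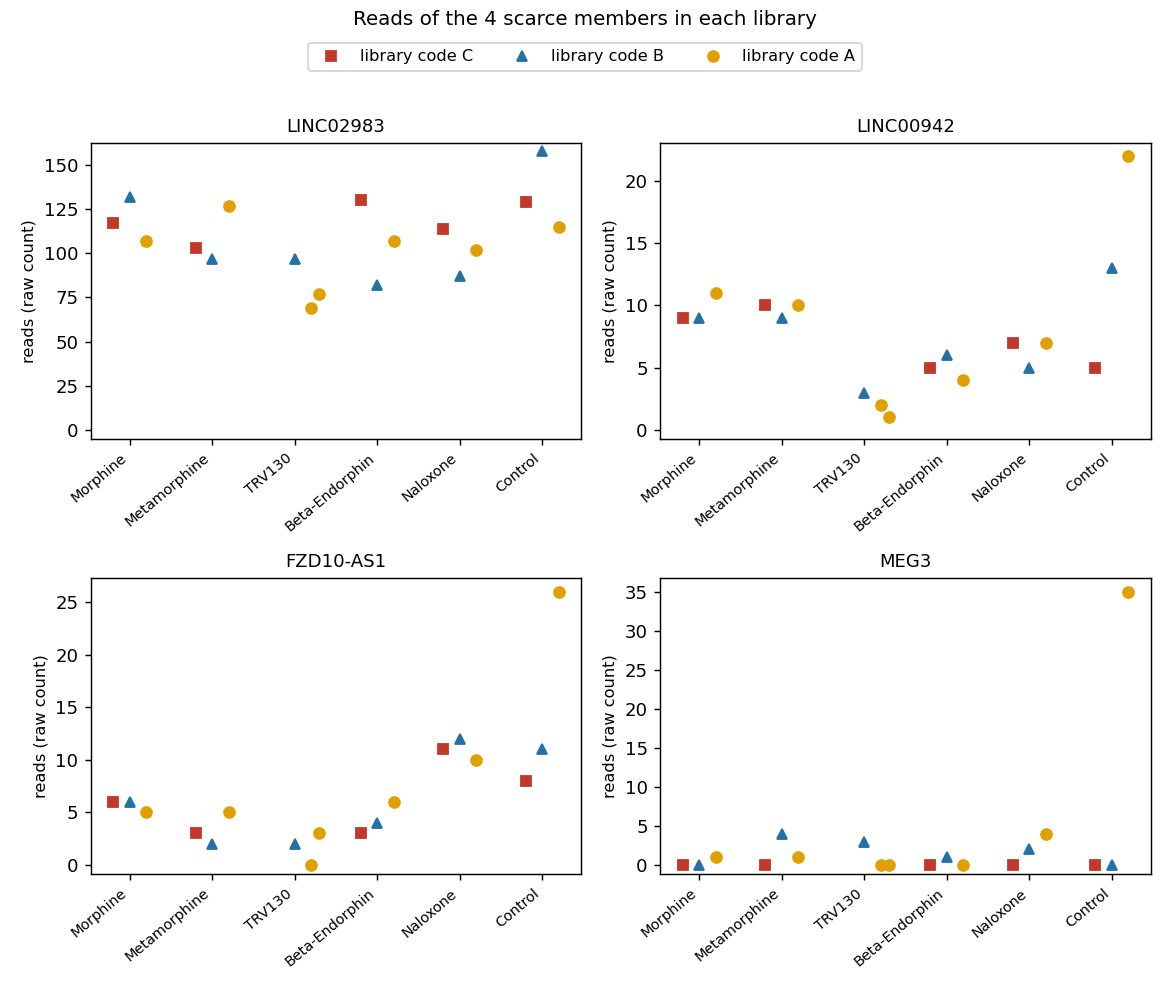
Raw reads of the 4 scarce RNAs in each of the 18 libraries, by treatment group, with the colour and shape giving the library code. FZD10-AS1 has at most 6 reads in the 12 libraries of the first 4 ligands and 8 or more in Naloxone and Control, and MEG3 has 35 reads in Control 1 and at most 4 elsewhere.

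Counted over the RNAs fitted, 3 of 9 had all TRV130 libraries below all Control libraries (LINC00942, LINC02983 and FZD10-AS1), where the background share of all fitted genes was 1.95%. The same held for 2 of 9 with Morphine (1.64%), 1 of 9 with Metamorphine (2.25%), 1 of 9 with Beta-Endorphin (2.5%) and 1 of 9 with Naloxone (2.14%). For 0 of 9 did all libraries of a ligand lie above all Control libraries, with backgrounds of 3.96% for Morphine, 8.71% for Metamorphine, 1.24% for TRV130, 9.75% for Beta-Endorphin and 7.14% for Naloxone. Since LINC00942 and FZD10-AS1 were kept partly through Control, and since all were listed with these values known, the counts describe the 9 RNAs and support nothing further.

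**Figure D4:**
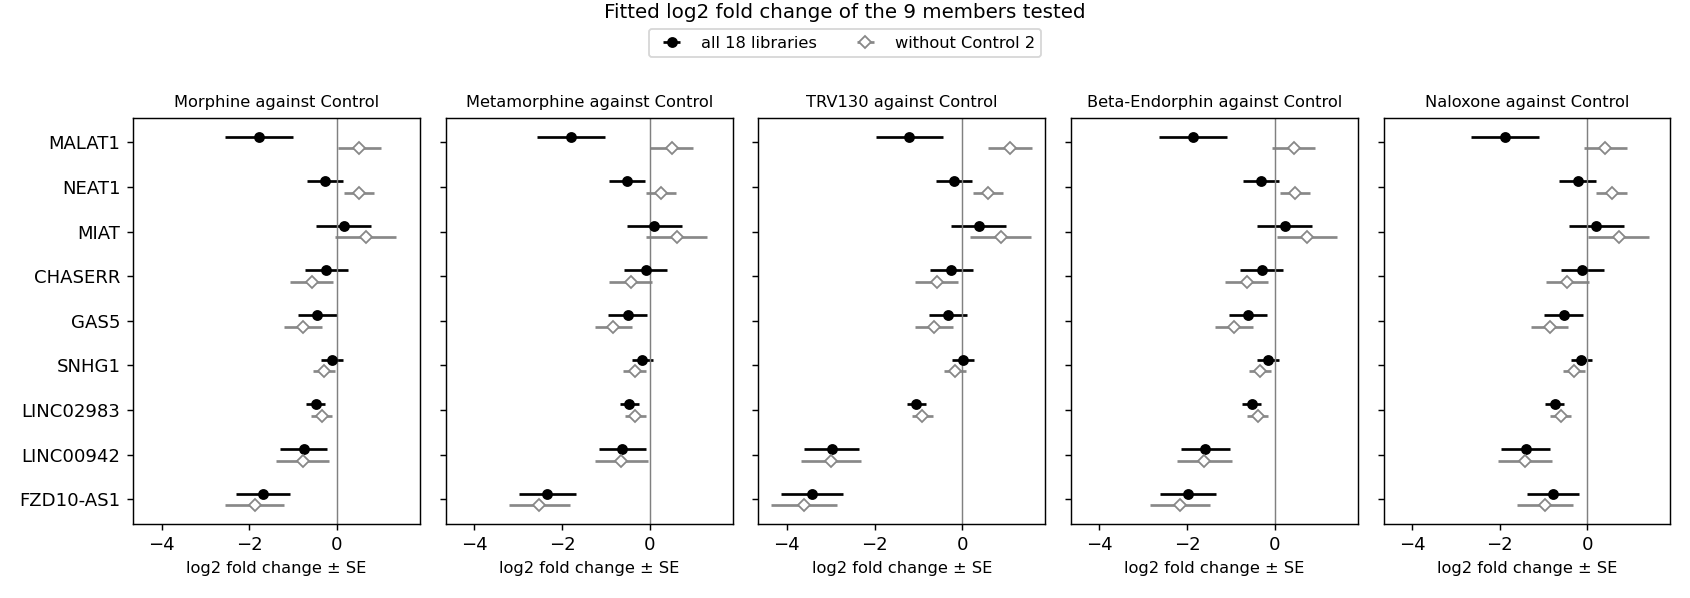
Fitted log2 fold change (x axis) with its standard error for the 9 fitted RNAs in each ligand comparison with Control, from all 18 libraries (filled circles) and without Control 2 (open diamonds). MALAT1 and NEAT1 lie below 0 with all libraries and above 0 without Control 2, while LINC02983, LINC00942 and FZD10-AS1 lie below 0 in both.

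The remaining 4 RNAs moved little with the ligands relative to their spread within groups, which includes the differences between codes. The SD of log2 CPM within groups was 0.96 for MIAT, 0.69 for CHASERR, 0.61 for GAS5 and 0.32 for SNHG1. With the code added it was 0.25, 0.22, 0.36 and 0.20. The TRV130 averages hold no code C library, so for TRV130 ligand and code are mixed in the averages below. MIAT averaged 83.0 ± 34.4 CPM with Morphine, 83.9 ± 52.4 CPM with Metamorphine, 91.0 ± 26.6 CPM with TRV130, 90.5 ± 48.0 CPM with Beta-Endorphin, 88.7 ± 52.6 CPM with Naloxone and 70.2 ± 46.9 CPM in Control (SD, n = 3 each). CHASERR averaged 54.0 to 67.2 CPM over the ligand groups and 65.4 ± 37.3 CPM in Control. GAS5 averaged 182 to 198 CPM over the ligand groups and 250 ± 99 CPM in Control. Its fitted log2 fold changes ran from -0.61 ± 0.44 (SE) for Beta-Endorphin to -0.32 ± 0.44 for TRV130, and it was lower than the Control of its code in 13 of 15 ligand libraries, against 17.4% of fitted genes that were so in at least 13. SNHG1 was the steadiest, with group averages of 39.4 to 39.8 CPM in all 6 groups.

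Code C stood apart from both other codes for MIAT and CHASERR. MIAT averaged 31.3 ± 8.5 CPM in code C (n = 5), 118 ± 10 CPM in code B (n = 6) and 93.5 ± 19.4 CPM in code A (n = 7). Its highest code C library, at 43.4 CPM, lay below the lowest of the other codes, at 68.3 CPM. CHASERR ran the other way, with 95.6 ± 12.3 CPM in code C, 39.7 ± 5.7 CPM in code B and 56.0 ± 5.0 CPM in code A. None of the 3 codes overlapped with another for CHASERR, whose ranges were 78.7 to 107 CPM, 32.8 to 47.8 CPM and 50.8 to 63.5 CPM.

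GAS5 was high in code C as well, with 270 ± 26 CPM there, 142 ± 24 CPM in code B and 206 ± 59 CPM in code A (SD, n = 5, 6 and 7). SNHG1 had 42.4 ± 1.7 CPM in code C, 33.8 ± 3.8 CPM in code B and 42.7 ± 3.1 CPM in code A. The ranges of codes C and B did not overlap for either host gene. NEAT1 was highest in code B, with 204 ± 29 CPM in code C, 421 ± 106 CPM in code B and 237 ± 44 CPM in code A. MALAT1 in ligand libraries alone averaged 96.6 ± 23.5 CPM in code C (n = 4), 235 ± 28 CPM in code B (n = 5) and 197 ± 59 CPM in code A (n = 6). LINC02983, LINC00942 and FZD10-AS1 overlapped between all codes.

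With the group in the model, the fitted log2 fold changes of code C against code B were -1.87 ± 0.14 (SE) for MIAT, -1.70 ± 0.46 for MALAT1, -0.94 ± 0.17 for NEAT1, 0.43 ± 0.12 for SNHG1, 1.05 ± 0.18 for GAS5 and 1.40 ± 0.12 for CHASERR. Without Control 2 the MALAT1 value was -1.08 ± 0.22. These 6 of 9 are beyond the edgeR threshold in that comparison, where the background is 54.8% of all fitted genes. Of code C against code A, MIAT had -1.64 ± 0.14 and CHASERR 0.80 ± 0.12, the 2 of 9 beyond it, with a background of 33.2%. Of code B against code A, 4 of 9 are beyond it, with a background of 26.9%: NEAT1 with 0.69 ± 0.15, SNHG1 with -0.46 ± 0.11, CHASERR with -0.59 ± 0.12 and GAS5 with -0.61 ± 0.18. Nothing is read from these counts, since the RNAs were listed with their levels across codes in view. Without Control 2 or without TRV130 3, GAS5 no longer passed in the last comparison, and without Control 1, Naloxone 1 and Naloxone 2 neither GAS5 nor SNHG1 did. Mitochondrial genes took 4.66% to 9.47% of counts in code C, 8.02% to 15.7% in code B and 6.15% to 17.7% in code A, and their part in these differences was not tested.

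**Figure D5:**
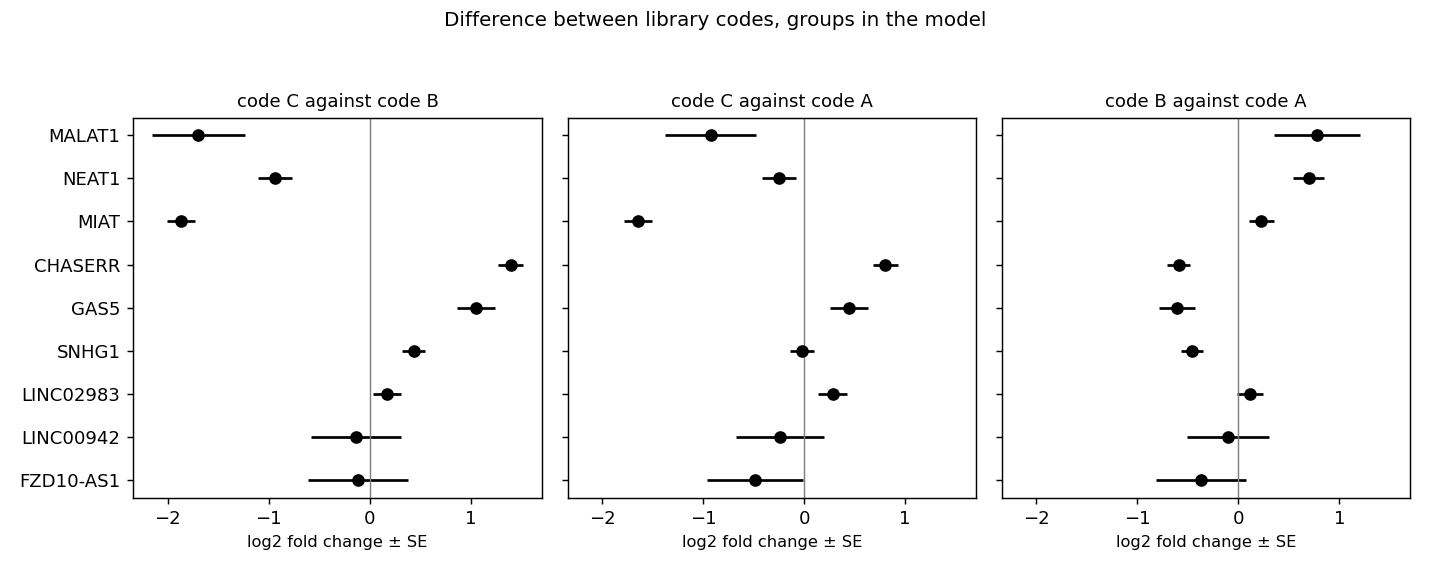
Fitted log2 fold change (x axis) with its standard error for the 9 fitted RNAs between pairs of library codes, with the treatment group in the model. MIAT is lowest in code C (-1.87 against code B, -1.64 against code A) and CHASERR is highest there (1.40 and 0.80).

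Other snoRNA host genes were, like GAS5, mostly higher in code C and lower in code B. Of 22 noncoding hosts other than GAS5 and SNHG1, 18 rose and 1 fell past the edgeR threshold in code C against code B, where the background is 54.8% of all fitted genes in either direction, with a median log2 fold change of 0.87 over the list and -0.04 over all fitted genes. SNHG8 had 1.38 ± 0.16 (SE) and SNHG32 had 1.09 ± 0.13. In code B against code A, with a background of 26.9%, 15 fell and 1 rose, with a median of -0.46. Among 83 cytosolic ribosomal protein genes, 82 rose in code C against code B, with a median of 1.17, with RPS23 at 1.45 ± 0.18 and RPL22 at 1.23 ± 0.16. Against Control, 1 of the 22 hosts had a fold change above 0 in each ligand comparison, as did 46.3% to 47.2% of all fitted genes, and none passed. Host medians ran from -0.44 for Beta-Endorphin to -0.27 for TRV130, with -0.04 to -0.02 over all fitted genes, and the comparisons share their Control libraries. The ribosomal protein genes had medians from -0.61 for Beta-Endorphin to -0.46 for TRV130, and none passed.

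Genes for the proteins that work with these RNAs are counted here in the same way, against the same background of 54.8% in code C against code B. Of 16 paraspeckle protein genes, 7 rose and 4 fell in that comparison. In code B against code A, 0 rose and 3 fell, with 15 of 16 fold changes below 0 and a median log2 fold change of -0.17, against 0.02 over all fitted genes. Those that rose included HNRNPH3 (0.54 ± 0.08, log2 fold change and SE) and NUDT21 (0.68 ± 0.11), and SMARCA4 fell (-0.56 ± 0.09). Of 16 nuclear speckle protein genes, 6 rose and 6 fell, with SRSF3 at 0.82 ± 0.10 and the scaffold gene SRRM2 at -1.37 ± 0.14. Among the 3 genes for splicing factors that bind MIAT, SF1 fell (-0.54 ± 0.10), while CELF3 had -0.17 ± 0.09 and QKI 0.10 ± 0.13. Of 10 nonsense-mediated decay factors, 1 rose and 5 fell, SMG5 with -0.60 ± 0.10 and UPF1 with -0.46 ± 0.08. None of these genes passed against Control with any ligand, and the median log2 fold changes of the paraspeckle list there were 0.01 to 0.08.

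Of 11 fitted neighbour genes of the RNAs, 0 rose and 6 fell in code C against code B, a share near the background of 54.8%, and none passed against Control. CHD2, beside CHASERR, had a log2 fold change of -0.31 in code C against code B, where CHASERR had 1.40, and changes of 0.08 to 0.31 with the 5 ligands, none of which passed. RTL1 and DLK1, which are coding genes of the MEG3 cluster, as is DIO3, were well expressed, at means of 543 and 310 CPM. MEG3 itself had almost no reads. The noncoding RNAs MEG8 and MEG9 of that cluster averaged 0.988 and 3.01 CPM.

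Among 11 fitted long noncoding RNAs outside the list, 2 rose and 4 fell in code C against code B, a share near the background of 54.8%. Those that fell included KCNQ1OT1 with -1.79 ± 0.29 (log2 fold change and SE) and FTX with -0.71 ± 0.11. None passed against Control. The genes most like each RNA were found by the root mean square difference of centred log2 CPM over the 18 libraries, where 0 means an identical pattern. Nearest to MALAT1 was RF01871, at 0.16, which lies inside it and shares its reads, followed by AMZ1 at 0.38 and KCNQ1OT1 at 0.39. GAS5 had the closest match, CWC15 at 0.04, and SNHG1 the next, GNL3 at 0.09, with SNHG10 also at 0.09. CHASERR was nearest to GTF2A2, at 0.12, and NEAT1 to ENGASE, at 0.18. MIAT was nearest to HSPG2, at 0.21, and LINC02983 to KIZ-AS1, at 0.21. LINC00942 and FZD10-AS1 had the largest nearest differences, 0.48 to SLC6A5 and 0.54 to THEGL. The measure is not scaled to how much each RNA itself varied, so a steady RNA has small differences more easily. The root mean square deviation of an RNA from its own mean was 0.27 for SNHG1, 0.35 for LINC02983, 0.57 for CHASERR, 0.76 for LINC00942 and 0.87 for FZD10-AS1. These likenesses describe the 18 libraries, in which the code is shared by many genes.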

How the data were processed

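RNA of 18 libraries was measured in 6 groups of 3, taken from the sample titles. Per the labels, libraries were unstranded and 150 bp paired reads were taken on a NovaSeq instrument. The table the authors deposited holds whole, unnormalised read counts for each Ensembl gene. HISAT2, featureCounts, FastQC, DESeq2 and the build GRCh38 (hg38) are named in the submitters' processing notes. Tool versions, counting options and annotation were not given in the sources used here. All 58735 identifiers are in GENCODE 29, used for positions and exon lengths; current symbols came from a table of gene names.

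From the deposited counts, CPM, TPM (over the union of exons) and log2 CPM (TMM-scaled, prior count 2) were computed. edgeR 4.0.16 in R 4.3.3 (TMM scaling, filterByExpr with a minimum count of 10, robust quasi-likelihood test, Benjamini-Hochberg adjustment over 23231 genes, threshold 0.05) was fitted to all 18 libraries with a mean per group; code comparisons added the code. SE came from the fold change and its F statistic. The code was read from the library names (A 0409, with 10409 and 20409 of TRV130; B 1109; C 14.04). The common dispersion gave a coefficient of variation of 0.309 for groups and of 0.182 once the code was added. Limits for a count of 0 were 3 reads and cover counting error only.

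Alternatives were DESeq2 1.42.0, RLE scaling, no count filter, blocks by replicate number or code, the compared groups alone, and each library left out. The test was checked on simulated data. All 10 members are named; of each gene list, those with the smallest p in the comparison; and the genes nearest each member. Members and lists were chosen with earlier results of these data known. Same-numbered libraries of different groups were not taken as pairs.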

Additional observations from a re-analysis of the deposited data

Results flagged for a closer look

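The fitted RNAs were checked for a library far from the others of its code, which gave 27 sets of 5 to 7 libraries, of which chance alone sets apart about 1 in 20. In 2 sets a library stood apart, and in both it was Control 2. The MALAT1 level of Control 2 (log2 CPM) was highest of the 6 code B libraries, with a gap to the next that was 0.878 of the whole range. LINC02983 in Control 2 was also highest of the 6, with a gap that was 0.642 of the range. NEAT1, which was highest in the same library, did not stand apart by this measure.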

How the results depend on the processing

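Of 1989 member values under alternatives, 1937 moved by less than 1 SD between replicates and 52 by more. For comparisons with Control that SD is the one within groups, which includes the differences between codes, at 1.06 for MALAT1 and 0.69 for CHASERR in log2 CPM. A value could therefore change sign without counting as moved. CHASERR with TRV130 changed sign in 4 of 26 settings, and 0 counted as moved. Many settings also left out a library of a group not compared. MALAT1 and NEAT1 turned sign against Control without Control 2, as given above. As reported, edgeR called 0 genes in each comparison with Control. DESeq2 called 1 for TRV130 (LINC02983, so 1 member), 1 for Beta-Endorphin, 2 for Naloxone and 12 for the mean of the ligands. With no count filter, that mean gave 3270 genes (7.02%) and 2 members, FZD10-AS1 and MEG3, whose reads in Control are all in Control 1. Leaving out a library gave 0 to 123 genes and 0 to 2 members for that mean, the highest without Control 3, and 0 for each single ligand. The code as a block gave 0 genes for each single ligand and 1 gene for the mean, with 0 members. The code as a block with no Control 2, chosen after seeing the data, gave 2 genes for Morphine, 3 for TRV130 and 15 for the mean, with 0 members. Between codes, leaving out a library gave 2586 to 7759 genes for B against A (6256 with all; 3387 without Control 2, 2586 without TRV130 3, 4093 without Naloxone 2), 4812 to 8925 for C against A (7709; 4812 without Naloxone 3) and 10833 to 13916 for C against B (12719). Without Control 1, Naloxone 1 and Naloxone 2, the first was 1956, with 2 members (NEAT1 and CHASERR), and the second 4729. Members called in these 3 comparisons with a library left out were 3 to 5, 2 to 4 and 6, against 4, 2 and 6 with all, and 5, 5 and 7 with no count filter, where 14.2%, 17.3% and 27.4% of 46594 genes passed and MEG3 was among the last 2 sets. The cause was not tested.

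With the replicate number as a block, 0 genes passed in each comparison with Control and 0 members; 3667 genes were at an unadjusted p under 0.05 for the mean of the ligands, against 2654 without the block. The deviations of same-numbered libraries had a median correlation of 0.20 over 45 pairs (lowest -0.46, 26 above 0.1). Over 90 pairs with other numbers the median was -0.06 (24 above 0.1). Number and code coincide in every group but TRV130, so these blocks are largely the same. The numbers were not taken to pair the libraries, as they part from the code in TRV130. Libraries of the same code had a lowest correlation of -0.30. The same-numbered pair at -0.46 therefore differed in code and held a TRV130 library, and it says nothing against pairing by code. For libraries of the same code the median was 0.30 (32 of 45 pairs above 0.1), and for other codes -0.12 (18 of 90 pairs). The main fit against Control leaves this code difference in its spread. With the code as a block 6888 genes were at an unadjusted p under 0.05 for the mean of the ligands.

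Depth limits LINC00942, FZD10-AS1 and MEG3, which had fewer than 10 reads in most libraries. Shared reads with overlapping genes limit MALAT1, NEAT1, MIAT, CHASERR, GAS5, SNHG1 and LINC02983, and no library carries strand. CHASERR, with 29346 reads over all libraries, shares 225 exon bases with AC013394.1, which had 18052. GAS5 shares 42 with GAS5-AS1, and snoRNA genes such as SNORD22 lie within exons of SNHG1. The part of shared reads in the values of these genes was not tested. Each code has 1 Control library, so a within-code difference has no replicate of its own.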
